A study of Mus musculus with 4 samples.

Results

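The regions described here are the narrow H3K36me3 peaks closest to the centromeres of the mouse autosomes. They were chosen by position alone, as the refined peaks of chromosomes 1 to 19 whose midpoint lay between 3 Mb and 8 Mb of mm9, the first assembled 5 Mb after the centromere gap. In B6, 1987 of 58502 refined peaks met this rule, a share of 3.40%, and in KI 2511 of 72692 did, a share of 3.45%, together 4498 of 131194. All 4498 entered every count below, and no filter on signal could be applied because the lists give positions only.

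H3K36me3 ChIP-seq was performed on juvenile male germ cells, labelled spermatocytes, at 14 dpp. B6 is the inbred strain C57BL/6J, and KI is B6.Cg-Prdm9<tm1.1Kpgn>/Kpgn, a knock-in on the B6 background in which the last exon of Prdm9, encoding the zinc finger array, comes from the Cst allele. Each strain had 1 input, labelled 15 dpp, and 1 pooled ChIP list made by the authors from 2 merged biological replicates. The antibody label reads H3K36me6 where the sample titles read H3K36me3. Because replicates were merged before peaks were called, no value below carries a replicate error and no test between strains or places was possible. Wilson 95% intervals are given with shares and with density ratios, and cover counting error only. The KI libraries were sequenced more deeply than those of B6 according to the methods, so depth and strain cannot be told apart in any count of peaks, and the read depth behind a single peak is unknown. In bulk chromatin, a mark in fewer cells and a weaker mark in each cell cannot be told apart either.

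H3K36me3 is laid along the bodies of transcribed genes by SETD2, which travels with elongating RNA polymerase II. In meiotic germ cells PRDM9 is a further source of the mark, since it binds DNA through its zinc fingers and methylates nearby nucleosomes at recombination hotspots. Mouse autosomes carry the centromere at one end, and mm9 represents it by a run of unknown bases, so that the first assembled sequence is the sequence nearest to the pericentromeric satellite repeats.

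The sequences of a few members show what a refined peak near the gap looks like. The first B6 peaks shown are close matches to a KI peak outside exons, measured as the overlap as a share of both peaks. The B6 peak at chr8:4272897-4273023 lay in an intron of Timm44, a component of the mitochondrial protein import motor, and covered 127 bp, with a KI peak of 136 bp that overlapped it over 93.4% of the longer of the pair. The peak at chr9:7864966-7865536 lay in an intron of Birc3, an inhibitor of apoptosis, with an overlap of 92.5%. All sequences are from the plus strand of mm9 and run 5′ to 3′, at most the central 300 bases of a peak, and capitals mark bases that were also inside the KI peak, here every base shown.
Timm44 intron, B6 and KI: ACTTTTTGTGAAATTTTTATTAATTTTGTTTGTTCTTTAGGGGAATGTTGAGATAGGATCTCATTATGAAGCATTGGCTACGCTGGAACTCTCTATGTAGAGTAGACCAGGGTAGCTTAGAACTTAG
Birc3 intron, B6 and KI: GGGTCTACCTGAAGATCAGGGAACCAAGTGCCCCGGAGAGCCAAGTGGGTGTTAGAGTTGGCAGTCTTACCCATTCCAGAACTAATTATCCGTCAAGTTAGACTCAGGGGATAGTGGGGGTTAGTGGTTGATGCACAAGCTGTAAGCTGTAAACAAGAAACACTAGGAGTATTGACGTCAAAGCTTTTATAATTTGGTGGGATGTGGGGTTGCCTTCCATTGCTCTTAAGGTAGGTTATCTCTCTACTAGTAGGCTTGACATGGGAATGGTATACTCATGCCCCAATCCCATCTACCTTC

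The GC content of the printed bases was 35.4% for Timm44 and 46.7% for Birc3. The next set shows the contrasting class, peaks outside genes with no refined or broad region of the other strain over them, taken from the widest of at most 300 bp among 99 candidates in B6 and 184 in KI. They are in lower case because the other strain covered none of their bases. In B6 these were chr11:6313525-6313824, with Ppia as the nearest protein-coding gene, and chr12:7185507-7185805, with Gm17295 nearest. In KI the peak shown was chr1:4517971-4518269, with Sox17 nearest.
Near Ppia, B6 only: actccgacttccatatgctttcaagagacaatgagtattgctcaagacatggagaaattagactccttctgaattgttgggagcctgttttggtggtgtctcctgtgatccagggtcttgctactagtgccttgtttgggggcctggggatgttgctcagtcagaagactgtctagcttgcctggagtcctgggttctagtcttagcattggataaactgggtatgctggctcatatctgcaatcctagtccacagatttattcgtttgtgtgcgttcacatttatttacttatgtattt
Near Gm17295, B6 only: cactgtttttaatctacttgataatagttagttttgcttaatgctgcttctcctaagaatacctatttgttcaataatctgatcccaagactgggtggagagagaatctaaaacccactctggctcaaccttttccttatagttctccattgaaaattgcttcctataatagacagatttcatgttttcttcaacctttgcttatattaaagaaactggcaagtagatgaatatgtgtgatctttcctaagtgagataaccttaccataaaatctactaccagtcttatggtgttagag
Near Sox17, KI only: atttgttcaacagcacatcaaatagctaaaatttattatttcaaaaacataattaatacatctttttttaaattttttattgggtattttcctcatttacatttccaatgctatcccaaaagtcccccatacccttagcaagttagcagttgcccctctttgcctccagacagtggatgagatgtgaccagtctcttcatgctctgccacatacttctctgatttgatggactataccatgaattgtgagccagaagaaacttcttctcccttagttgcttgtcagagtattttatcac

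Their GC content ran from 34.4% near Gm17295 to 44.7% near Ppia, overlapping that of the shared introns. Over all members the median width of a refined peak was 319 bp in B6 and 327 bp in KI, beside 312 bp and 318 bp in the rest of the autosomes. Shared members were wider, with medians of 370 bp in B6 and 369 bp in KI, beside 363 bp and 372 bp for shared peaks in the rest. A wider peak more easily meets the 1 bp asked of a shared peak, so width and sharing are not independent. Median GC was 42.5% in B6 and 42.8% in KI, beside 42.2% and 43.2% in the rest.

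The first question was whether the chromosome ends next to the centromere carry as many narrow H3K36me3 peaks as the rest of the same chromosome. Pooled over 19 autosomes, they carried slightly fewer. B6 had 21.1 peaks per Mb of sequenced bases in the first 5 Mb, beside 22.9 per Mb expected from the rest of each autosome, a ratio of 0.923 (0.884 to 0.964). KI had 26.7 per Mb beside 28.7 expected, a ratio of 0.927 (0.892 to 0.963). Compared with the next 5 Mb, however, the first 5 Mb were denser in both strains, with 20.2 per Mb in B6 and 24.8 in KI between 8 Mb and 13 Mb, and the last 5 Mb of the autosomes were the densest of these places, at 25.1 and 30.5 per Mb. With the window shortened to 3 Mb the ratios were 1.08 in B6 and 1.0045 in KI. The side of the rest on which the chromosome starts fell thus depended on the stretch taken and the stretch they were set beside.

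The pooled ratio hid a wide spread between chromosomes. In B6, 9 autosomes lay above their own rest and 10 below, and the mean of the 19 ratios was 0.903 ± 0.546 (SD over autosomes, n = 19). In KI, 7 lay above and 12 below, with a mean of 0.905 ± 0.557 (SD over autosomes, n = 19). The shortfall of the pooled ratio was thus small beside the variation between autosomes. Window densities in B6 ran from 0.213 to 46.9 peaks per Mb with a median of 22.5. Those in KI ran from 0.426 to 68.1 with a median of 25.2. The rests of the same autosomes covered a narrower range, 17.9 to 28.7 per Mb in B6 beside 22.1 to 36.4 in KI.

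**Figure D1:**
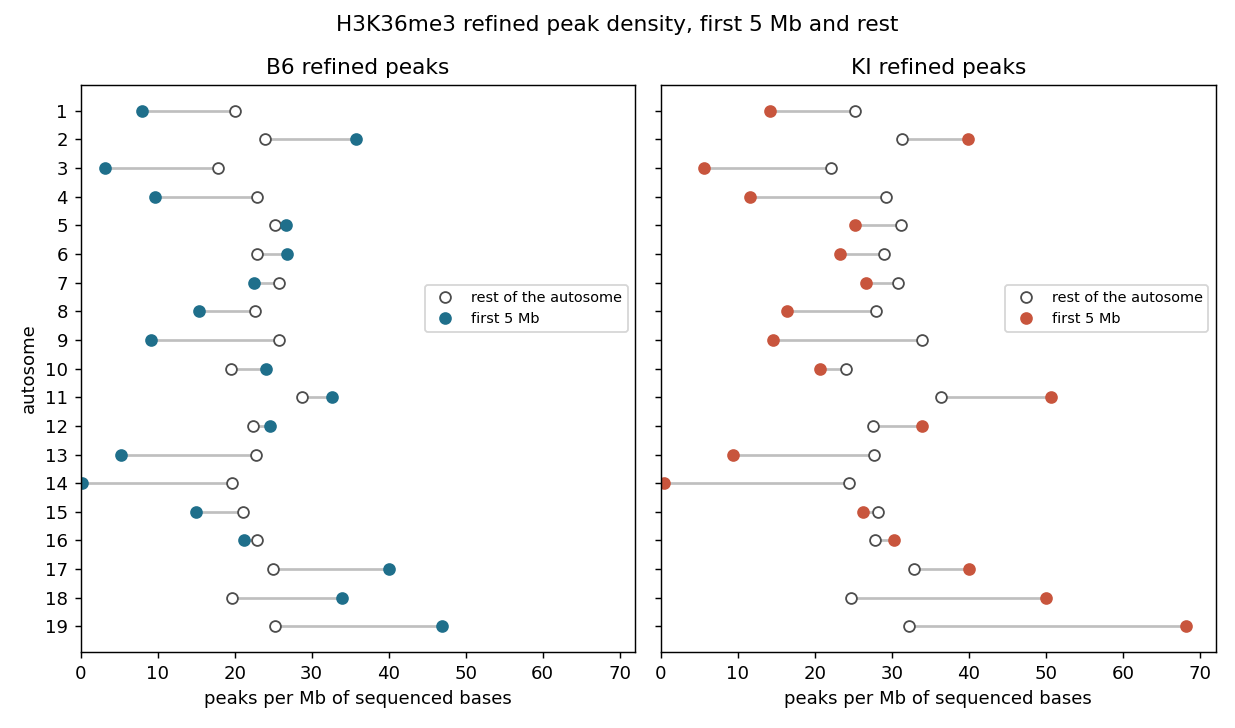
Refined peaks per Mb of sequenced bases (x axis) for each autosome (y axis) in B6 (left) and KI (right), with filled points for the first 5 Mb and open points for the rest of the same autosome. The open points stay between 17.9 and 36.4 per Mb, while the filled points run from near 0 on chromosome 14 to 46.9 (B6) and 68.1 (KI) on chromosome 19.

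Chromosome 19 had the most peaks next to the gap, 225 in B6 and 327 in KI, which were 1.85 and 2.12 times the number expected from its rest. Among the 11 windows of 5 Mb on chromosome 19, the first ranked 2 in B6 and 1 in KI. Chromosome 18 was next by the ratio to its rest, 1.73 in B6 and 2.02 in KI, with 170 and 250 peaks, ranking 2 in B6 and 1 in KI of 17 windows. Chromosome 17 had 196 peaks in each strain, 1.60 times its rest in B6 and 1.22 times in KI. Chromosomes 2 and 11 were also above their rest in both strains, with 179 and 163 peaks in B6 and 199 and 253 in KI. The pair of starts with most peaks, chromosomes 19 and 17 in B6 and 19 and 11 in KI, held 21.2% of all B6 members and 23.1% of all KI members.

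At the other extreme, the first 5 Mb of chromosome 14 held 1 refined peak in B6 and 2 in KI, where 92.1 and 115 were expected from its rest. Chromosome 3 had 16 peaks in B6 and 28 in KI, chromosome 13 had 26 and 47, chromosome 1 had 40 and 71, chromosome 9 had 46 and 73, and chromosome 4 had 48 and 58. Each of these 6 starts was below its rest in both strains. The sparse starts were thus largely the same chromosomes in B6 and KI, although their lists were called separately.

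Some properties of the sequence differed between these places, but not always in step with the densities. One was the content of protein-coding genes. They took 36.6% of sequenced bases in the first 5 Mb, 38.3% in the next 5 Mb, 39.6% in the rest and 45.0% in the last 5 Mb. The next 5 Mb thus had more genic bases than the first but fewer peaks per Mb. The starts of chromosomes 3 and 13 had 10.9% and 10.3% of their bases in genes, and that of chromosome 19 had 60.7%. The other was how much of the sequence occurs only once, which bears on the lists because the authors kept reads with a unique position. Of 100-base words sampled each 500 bp, 88.1% occurred once in the genome in the first 5 Mb, beside 90.6% in the next 5 Mb, 94.2% in the rest and 95.4% in the last 5 Mb. The start of chromosome 14 stood apart, with 15.9% of its words found once beside 93.0% in its rest, while 70.2% of its bases lay in annotated genes. The starts of chromosomes 7 and 17 had 76.0% and 80.0% of words found once, although that of chromosome 17 was denser than its rest in both strains. The part of either property in the densities was not tested. With densities taken per Mb of words found once, the ratios were 0.98 in B6 and 0.99 in KI, and with bases in and outside genes given their own densities they were 0.97 in both.

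Inside genes, peaks next to the gap were about as dense as elsewhere. B6 had 44.0 peak midpoints per Mb of genic sequence in the first 5 Mb beside 43.8 expected, and KI had 51.3 beside 53.1. Outside genes B6 had 7.88 per Mb beside 8.99 expected, a ratio of 0.88, and KI had 12.5 beside 12.7, a ratio of 0.98. Autosomes were divided in all 4 comparisons, with 10 above and 9 below in genes in both strains, and 8 above and 11 below outside genes in B6 and 7 and 12 in KI. When the gene content of each window was taken into account in this way, the ratio came nearer to 1 on 15 of 19 autosomes in each strain, and the SD of the 19 ratios went from 0.546 to 0.475 in B6 and in KI from 0.557 to 0.480.

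The Mb nearest to the gap was not the sparsest. In steps of 1 Mb from the gap, B6 had 21.3, 24.96, 27.5, 18.1 and 13.5 peaks per Mb, and KI had 24.8, 29.8, 31.9, 25.2 and 21.6. In both strains the highest value lay between 2 and 3 Mb from the gap and the lowest between 4 and 5 Mb. In B6, 85 of the 520 peaks of that highest step lay on chromosome 17. The median per autosome there was 13 peaks in B6, beside 25 between 1 and 2 Mb, and 23 beside 21 in KI. The share of bases in genes over the same steps was 40.6%, 39.96%, 41.7%, 34.6% and 26.0%, so the step with the fewest peaks was also that with the fewest genic bases. The peak nearest to a gap in either strain lay on chromosome 2 in an intron of Fam171a1, at a distance of 47.5 kb from the gap for B6 and 62.1 kb for KI. Over the 19 autosomes, the first peak came at a median of 155 kb in B6 and 232 kb in KI, and within 200 kb on 13 autosomes in B6 and 9 in KI. On chromosome 14 it came only after 3220 kb (B6) and 3277 kb (KI).

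**Figure D2:**
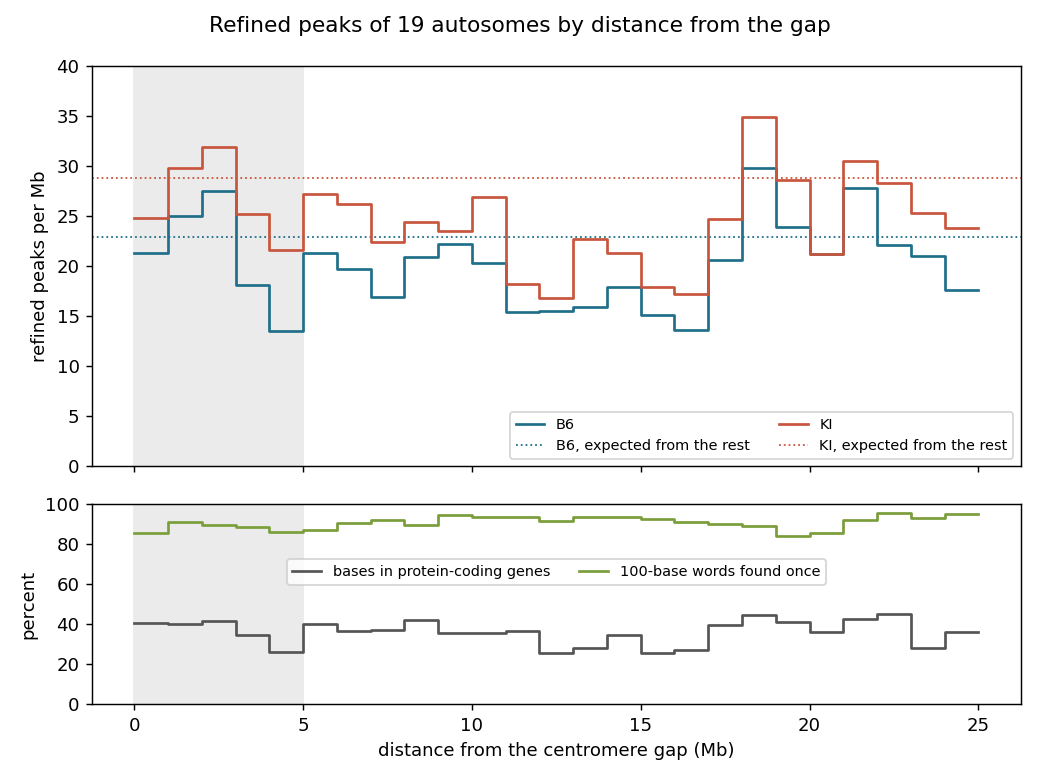
Refined peaks per Mb (upper y axis) of B6 and KI summed over 19 autosomes, and the percent of bases in protein-coding genes and of 100-base words found once (lower y axis), in steps of 1 Mb from the centromere gap (x axis). Dotted lines give the density expected from the rest, and in the grey first 5 Mb the B6 line falls from 27.5 to 13.5 per Mb between the third and the last step.

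The broad regions called by the same software gave a similar picture. Many were short, with a median width of 3500 bp around the B6 members and 3000 bp around the KI members. Broad regions covered 16.7% of sequenced bases in the first 5 Mb in B6 beside 17.8% in the rest, and 16.3% beside 17.0% in KI. Chromosome starts with many peaks tended to have much broad coverage, but the orders differed. In B6, chromosome 17 had 196 peaks with 20.4% covered, and chromosome 11 had 163 peaks with 38.2% covered. Chromosome 19 was covered over 46.6% of its first 5 Mb in B6 and 48.4% in KI, and chromosome 14 over 0.043% and 0.11%. Per Mb of broad region the number of refined peaks was close to that elsewhere, at 126 in the first 5 Mb and 128 in the rest in B6, and 163 and 168 in KI. Refined peaks were called inside broad regions, so this ratio and the coverage are not independent of each other.

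**Figure D3:**
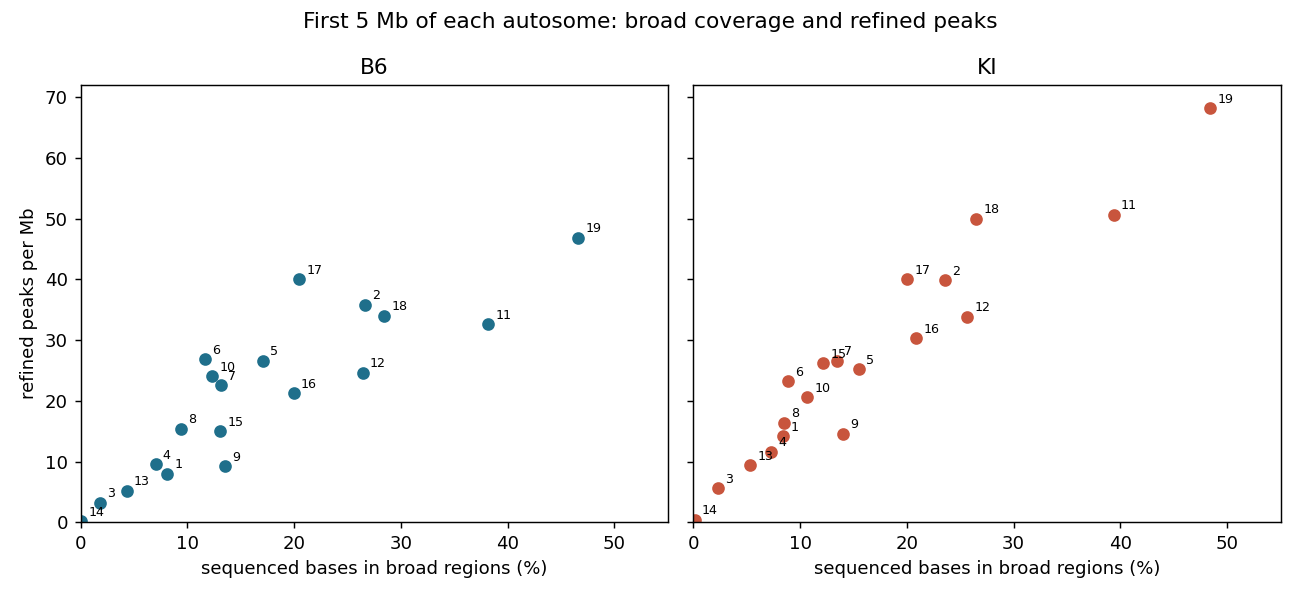
Refined peaks per Mb (y axis) against the percent of sequenced bases in broad regions (x axis) in the first 5 Mb of each autosome, in B6 (left) and KI (right), with the number of the autosome beside each point. Chromosome 19 lies at the upper right at 46.6% (B6) and 48.4% (KI) and chromosome 14 at the origin.

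The second question was how many of these peaks the strains share, since PRDM9 with different zinc fingers binds different sites while transcribed genes are largely common. In the first 5 Mb, 383 of 1987 B6 peaks overlapped a KI refined peak by at least 1 bp, a share of 19.3% (17.6% to 21.1%), beside 17.7% of all autosomal B6 peaks and 17.9% in the rest when each autosome was weighted by its members. In KI, 385 of 2511 members had such an overlap with B6, or 15.3% (14.0% to 16.8%), beside 14.1% of all autosomal KI peaks and 14.2% in the weighted rest. The intervals of both shares include the value of the rest. By autosome, the share was higher than in the own rest on 11 autosomes and lower on 8 in B6, and higher on 10 and lower on 9 in KI.

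Outside protein-coding genes the gap between the first 5 Mb and the rest was wider. There 83 of 452 B6 peaks were shared, 18.4% (15.1% to 22.2%), beside 13.7% in the weighted rest, and 90 of 723 KI peaks, 12.4% (10.2% to 15.1%), beside 9.42%. The value of the rest lay below both intervals, which treat neighbouring peaks as independent. When at least 50% of the shorter peak had to overlap, it lay inside both, with 11.9% (9.27% to 15.3%) beside 9.42% in B6 and 8.02% (6.26% to 10.2%) beside 6.52% in KI. Inside genes the shares were 19.5% beside 19.2% in B6 and 16.5% beside 15.8% in KI. The values outside genes kept their side of the rest when any single autosome was left out. They lay between 17.2% and 18.9% in B6 and between 11.3% and 12.9% in KI, both lowest without chromosome 19. Without chromosome 19, however, the KI interval of 9.02% to 13.96% included its rest of 9.18%. The B6 interval of 13.8% to 21.2% still lay above its rest of 13.1%. The shares outside genes were spread over the chromosomes unevenly. They were higher than in the own rest on 11 and lower on 7 of the 18 autosomes with such a B6 peak, and 11 and 8 of 19 in KI. Outside genes of any type the shares were 17.0% beside 12.8% in B6 and 10.9% beside 8.72% in KI, with 9 autosomes above and 9 below in B6 and 7 above and 12 below in KI.

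Peaks over which the other strain had no refined and no broad region are the strictest class of strain-only peak. In B6 there were 771, a share of 38.8% (36.7% to 41.0%) beside 43.3% of all autosomal peaks and 42.6% in the weighted rest. In KI there were 772, a share of 30.7% (28.97% to 32.6%) beside 32.1% of all autosomal peaks and 31.7% in the weighted rest. By autosome the share was above the own rest on 10 and below on 9 in B6, and above on 12 and below on 7 in KI, so the autosome tally and the pooled value went opposite ways. Outside genes the B6 share was 53.1% (48.5% to 57.7%) beside 63.0%, and the KI share 65.4% (61.9% to 68.8%) beside 67.7%. The B6 difference rested in large part on chromosome 19, where 32 of 225 B6 peaks, or 14.2%, were of this class. Without chromosome 19 the B6 share was 41.9% beside 42.8%, and 58.2% beside 63.5% outside genes. In KI the direction turned without chromosome 19, to 32.1% beside 31.9%, and to 69.3% beside 68.2% outside genes. It also turned without chromosome 18, to 31.9% beside 31.4% for all peaks, and with a window of 10 Mb, to 33.5% beside 31.8%.

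**Figure D4:**
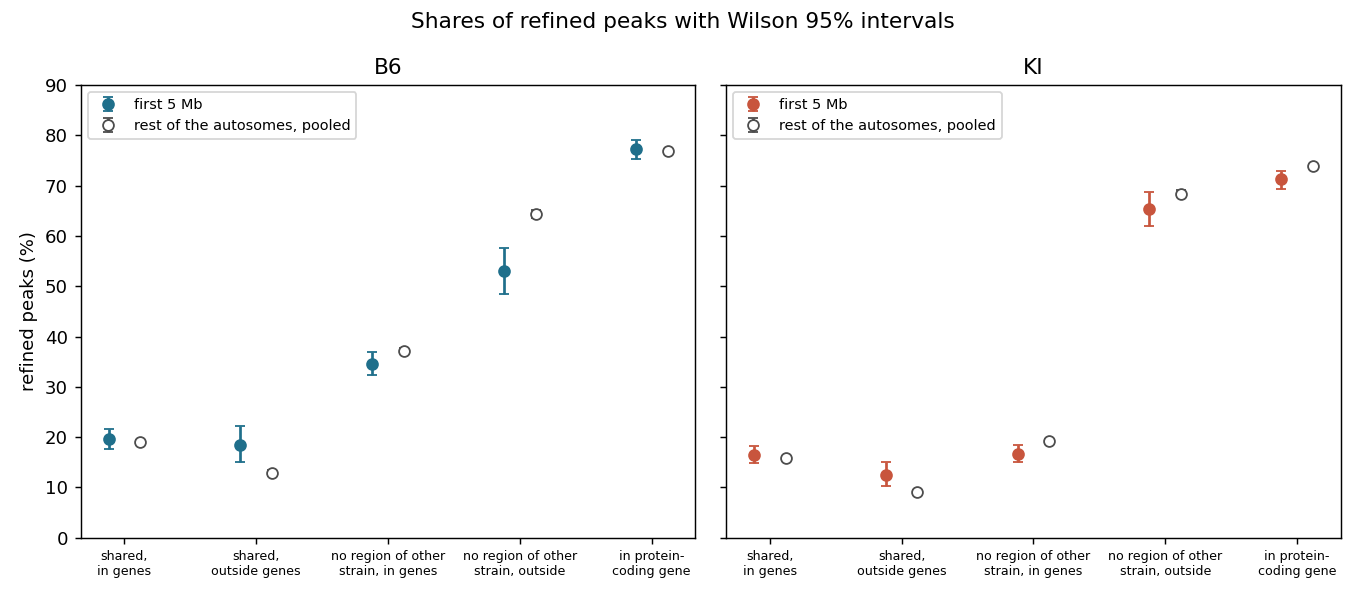
Percent of refined peaks (y axis) in 5 classes (x axis) for B6 (left) and KI (right), with filled points for the first 5 Mb, open points for all peaks of the rest pooled over autosomes, and bars for Wilson 95% intervals. The widest separation is in B6 peaks outside genes with no region of the other strain, at 53.1% in the first 5 Mb and 64.4% in the pooled rest.

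The numbers of peaks in the strains kept the same relation as elsewhere when summed. KI had 1.26 times as many members as B6 in the first 5 Mb and 1.26 times as many peaks in the rest. The single starts differed, with more B6 than KI peaks on chromosomes 5, 6 and 10, equal numbers on chromosome 17, and KI to B6 ratios of 1.78 on chromosome 1, 1.75 on chromosomes 3 and 15 and 1.81 on chromosome 13. In the rests of the autosomes the ratio stayed between 1.19 on chromosome 7 and 1.33 on chromosome 15. No test of these differences was possible with 1 list per strain.

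The share of members that overlapped a protein-coding gene was 77.3% (75.4% to 79.0%) in B6, or 1535 peaks, beside 76.9% of all autosomal peaks and 77.7% in the weighted rest. In KI it was 71.2% (69.4% to 72.9%), or 1788 peaks, beside 73.7% and 74.2%. The KI share was lower than in the own rest on 13 autosomes and higher on 6, and it stayed below the rest when each autosome was left out in turn. In B6 the direction turned without chromosome 19, to 77.6% beside 77.1%, without chromosome 7, to 77.9% beside 77.6%, and without chromosome 13, to 77.8% beside 77.7%. It also turned with a window of 3 Mb, to 78.2% beside 77.4%, and with genes of any type, to 79.8% beside 79.6%. The lowest shares among starts with over 40 peaks in KI were 27.7% on chromosome 13 and 53.4% on chromosome 4, and the highest was 85.3% on chromosome 10.

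Before genes are described, the labelled cells were checked against marker genes, using the percent of the gene body in broad regions. All 7 germ cell markers, among them Ddx4, Sycp3, Dmc1 and Stra8, were covered over at least 77.4% of their length in both strains. Of 8 markers of other cells, 2 were covered by at least 50% in B6 and 1 in KI, with medians of 33.0% and 5.001%. The Sertoli cell genes Sox9, Wt1 and Amh were covered over 45.2%, 71.7% and 41.98% in B6 and over 0%, 8.49% and 0.33% in KI, and Star was covered in full in both. Alb was at 0% in both strains, Cyp11a1 at 0% in B6 and 1.51% in KI, Myh6 at 23.99% and 11.997%, and Ins2 at 9.59% and 11.99%. The part of Sertoli cell chromatin in the B6 values of the genes below was not tested.

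Of 927 protein-coding genes centred in the first 5 Mb, 394 were covered by broad regions over at least 50% of their length in both strains, 42.5% (39.4% to 45.7%) beside 40.1% in the rest. A further 21 reached this limit only in B6, 2.27% beside 3.09% in the rest, and 17 only in KI, 1.83% beside 1.37%. Neither strain covered any of 329 genes, 35.5% beside 33.8%. Of these, 102 lay on chromosome 14, so the higher share of uncovered genes rests on that start. The genes of chromosome 19 weigh heavily in the share covered in both strains, with 180 of the 927, of which 113 were covered in both. Without chromosome 19 the share was 37.6% beside 40.1%, and without chromosome 14, whose 105 genes included none that reached the limit, it was 47.9% beside 40.3%. At least 1 refined peak lay in 461 of the 927 genes in B6, or 49.7%, and in 486 in KI, or 52.4%, beside 52.7% and 55.1% in the rest. The 34 genes with 10 or more peaks in B6 held 43.5% of all overlaps of peaks with genes, beside 48.7% in the rest, and the 41 such genes in KI held 43.7% beside 51.8%.

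The 10 genes with most refined peaks were all long. Arid1b, a subunit of a chromatin remodelling complex, spanned 353325 bp on chromosome 17 and had 59 B6 and 46 KI peaks, with broad coverage of 53.5% and 38.8%. Camk1d, a calcium and calmodulin dependent kinase gene on chromosome 2, had 41 and 35 peaks and coverage of 28.4% and 19.1%. The cell cycle kinase gene Cdk6 had 36 and 23 peaks and coverage of 69.0% and 33.9%. Ppp1r9a, which encodes an actin-binding scaffold of protein phosphatase, had 36 and 21 peaks, and Syne1, encoding the nuclear envelope protein nesprin, had 34 and 16 over only 15.2% and 7.54% of its length. These 5 genes had more peaks in B6.

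The other 5 had more peaks in KI, although each was covered over less of its length in KI. Mpp7, a cell polarity scaffold gene on chromosome 18, had 35 B6 and 49 KI peaks with coverage of 87.1% and 72.3%. The splicing regulator gene Celf2 had the widest contrast, with 24 and 58 peaks and coverage of 60.1% and 51.9%. Svil, encoding an actin-binding protein, had 22 and 34 peaks, the nuclear receptor coactivator gene Ncoa1 had 21 and 27, and the adenylyl cyclase gene Adcy9 had 19 and 25. More narrow peaks in a gene therefore did not go along with more broad coverage when the strains were compared in these 5.

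**Figure D5:**
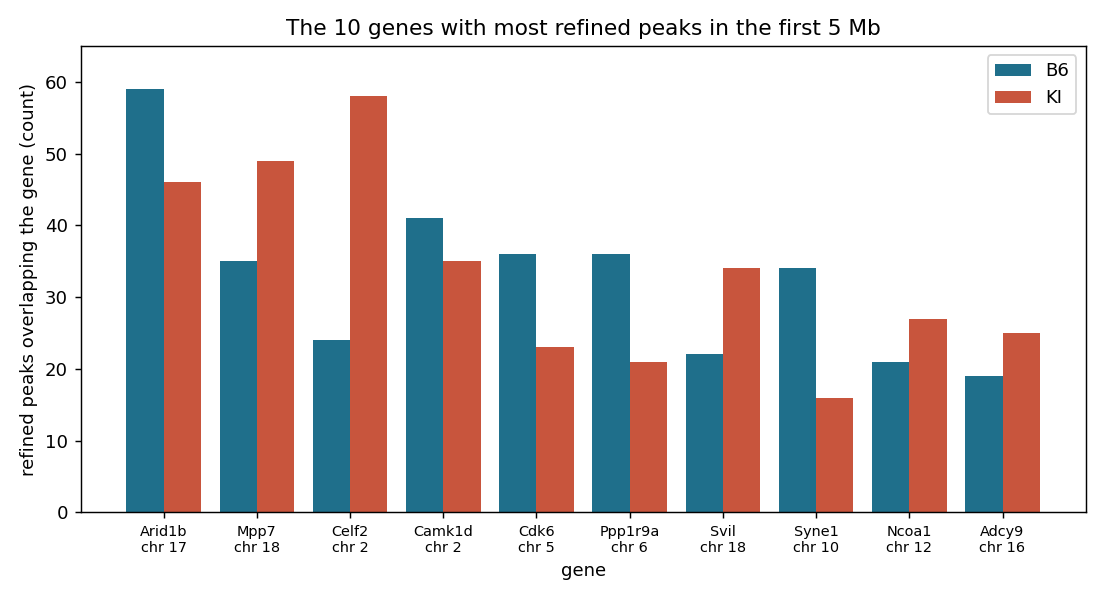
Number of refined peaks (y axis) overlapping each of the 10 genes with most members (x axis, with the chromosome), in B6 and KI. Arid1b, Camk1d, Cdk6, Ppp1r9a and Syne1 have more peaks in B6, and the other 5 have more in KI, with 24 beside 58 in Celf2.

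Gene lists drawn up by function describe single genes near the gap. Most members of the chromatin, RNA and ribosome, and signalling lists lay in the first 5 Mb. These lists are thus no sample of their kinds of gene, and how many members lay there is not a result. Of 20 genes of meiosis, germ cells and DNA break repair, 7 lay in the first 5 Mb, and 5 of them were covered over at least 50% in each strain. Of all 927 protein-coding genes there, 42.5% reached this limit in both strains, a further 2.27% only in B6 and 1.83% only in KI. The counts of the next lists are to be read beside the same shares. The 7 held 49 B6 and 34 KI peaks, of which 34 and 16 were those of Syne1. Crem, a regulator of spermatid gene expression, had 9 and 10 peaks and coverage of 87.8% and 81.5%. The crossover endonuclease gene Mus81, the cell cycle regulator gene Fbxo5 and the testis gene Mtl5 had 1 peak in each strain and coverage of 75.8% or more. The imprinted gene Peg3 had 3 and 5 peaks and coverage of 86.3% and 88.2%. Mos, a kinase gene of oocyte maturation, had no peak and no coverage in either strain.

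Of 14 chromatin genes, 13 lay in the first 5 Mb and each had at least 1 peak in both strains, 110 in B6 and 112 in KI in all. Of all 927 protein-coding genes there, 49.7% had a peak in B6 and 52.4% in KI. Coverage reached 50% in all 13 in B6 and in 12 in KI, Arid1b being the exception. The list also held Sf1, Upf2 and Krit1, which are better known for splicing, RNA decay and cell junctions. The DNA methyltransferase gene Dnmt3a had 13 and 12 peaks, while the acetyltransferase gene Crebbp had 1 in B6 and 8 in KI with coverage of 99.3% and 98.1%. All 10 RNA and ribosome genes, such as Rps20, Sf3a1 and Malat1, were covered over at least 80.7% in both strains but held only 14 B6 and 17 KI peaks. Neat1, a long noncoding RNA gene, held 6 and 7 of these, and like Malat1 it is not among the 927 protein-coding genes. A gene covered in full could thus hold a single refined peak.

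Of 31 signalling and tissue genes, 28 lay in the first 5 Mb, and 10 reached 50% coverage in each strain. The transcription factor gene Zeb1 had 17 B6 and 25 KI peaks with coverage of 90.1% and 81.1%, and Rictor, a subunit of a TOR kinase complex, had 3 and 6 with 96.6% and 88.5%. Insr, the insulin receptor gene, had 19 B6 and 9 KI peaks over 34.6% and 13.6%. The estrogen receptor gene Esr1 had 4 and 5 peaks over 2.28% and 3.30%. There was neither a peak nor coverage for 8 of the 28 genes, namely Oprk1, Sox17, Rp1, Penk, Dlx5, Dlx6, Tac1 and Akr1c6. Of all 927 protein-coding genes in the first 5 Mb, 35.5% had no coverage in either strain. The opioid receptor gene Oprm1 had no peak in B6 and 4 in KI, with coverage of 0% and 3.75%.

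Gene families in these chromosome ends were chosen after the values were seen, by the shared stem of their names. The 24 vomeronasal receptor genes, 21 of them on chromosome 7, had no B6 and 2 KI peaks, and none reached 50% coverage, beside 0.33% of such genes in the rest that did so in both strains. The 10 olfactory receptor genes had 1 peak in B6 and none in KI, and none reached 50% in both strains, beside 0.18% in the rest. Of 24 zinc finger protein genes, 17 on chromosome 7, 15 reached 50% in both strains, or 62.5% beside 71.2% in the rest, and they held 35 and 44 peaks. None of the 8 aldo-keto reductase genes of the 1C family on chromosome 13 reached the limit in both strains, and none of the 10 matrix metalloproteinase genes on chromosome 9 did, beside 15.4% of metalloproteinase genes in the rest. Of 160 predicted genes with a Gm name, 101 were on chromosome 14, and 8 reached the limit in both strains, 5% beside 12.01% in the rest. None of the 105 genes of the chromosome 14 start reached it, so the lower share of Gm genes rests on that start.

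The 3 peaks of the chromosome 14 start, also named after their values were seen, met no region of the other strain. The B6 peak at chr14:6219719-6219978 overlapped an exon of Gm3468. One KI peak at chr14:7568199-7568431 overlapped an exon of Gm10406 and Gm3636, and the other at chr14:6276670-6276978 lay 18840 bp from Gm3476, outside genes. With 15.9% of words there found once, the assignment of these peaks to one copy of a gene is uncertain.

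The widest members all lay in annotated genes, which 79.8% of all B6 members and 73.7% of all KI members overlapped. The widest shared B6 peaks were one of 2827 bp at chr19:7197378-7200204 in an intron of Macrod1, one of 2067 bp at chr2:5473520-5475586 in an intron of Camk1d and one of 1956 bp at chr19:5491185-5493140 over an exon of Cfl1, the cofilin gene. In KI they lay in introns of Mgrn1, Kremen1 and Net1, with widths of 2030, 1979 and 1867 bp. Most were shared over a small part only. As a share of the longer of the pair, the overlap was 8.77%, 52.3% and 22.2% for the B6 peaks. For the KI peaks it was 18.2%, 11.2% and 1.29%. The widest B6 peak with no KI refined peak covered 3179 bp at chr19:5794207-5797385 over an exon of the noncoding RNA gene Malat1, followed by peaks of 2505 bp in Oxct1 and 2312 bp in Cenpo. The widest KI peak with no B6 refined peak covered 3034 bp at chr12:4353346-4356379 over an exon of Ncoa1, followed by 2720 bp at Tigd3 and 2597 bp in an intron of Crebbp. All 6 of these peaks met a broad region of the other strain. Of all members, 1604 in B6 and 2126 in KI had no refined peak of the other strain. Among those, 771 and 772 met no broad region of it, so many others did meet one.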

How the data were processed

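The deposited files hold positions only (chromosome, start and end, unit other), 1 broad (unrefined) and 1 narrow (refined) list per strain. The authors aligned reads to mm9 with BWA (1.2.3 in the submitters' processing notes), kept reads of unique position, merged 2 replicates per strain and called regions with ZINBA against the input. The lists give no score or count. Repeated broad rows were used once, and positions were read as 1-based with both ends included.

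Densities are peak midpoints per Mb of sequenced (non-N) bases. The number expected applies the density of each autosome's rest, after 8 Mb, to its first 5 Mb. A peak was shared at an overlap of at least 1 bp. Gene models were those of GENCODE for mm9. A gene was placed by its midpoint and called covered at 50% of its length. Weighted rests use the members per autosome. Computation used Python 3.11.15, numpy 2.4.6, pandas 2.3.3, numba 0.67.0 and scipy 1.17.1 (Wilson 95% intervals). The code was tested on simulated data, and the overlap of the strains was checked against bedtools 2.31.1.

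The members and lists were chosen with earlier results of these data known. Named were the 10 genes with most members, the listed genes within the windows, the 3 widest shared and strain-only peaks of each strain, and the peaks nearest to the gap. Sequences were those of the 3 closest shared pairs in no exon and of the 2 widest strain-only peaks of at most 300 bp outside genes per strain, leaving out chromosome 18. The closest shared pair and one KI peak of these are not reported here. Alternatives were other window lengths, overlaps, gene definitions and denominators, merged peaks and leaving out each autosome. Repeat masks, hotspot lists and reads of single replicates were not used here.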

Additional observations from a re-analysis of the deposited data

How the results depend on the processing

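No paired analysis was possible because each strain has 1 pooled list, and no replicate could be left out. The density ratio of the first 5 Mb to the rest (0.923 in B6, 0.927 in KI) turned above 1 with a window of 3 Mb (1.08 in B6 and 1.0045 in KI) and against the next 5 Mb (1.05 and 1.08). It moved to 0.891 in KI with a window of 10 Mb. Alternatives chosen after seeing the data gave 0.98 (B6) and 0.99 (KI) per Mb of words found once, and 0.97 in both with genic and other bases apart. Leaving out single autosomes gave 0.867 (without 19) to 0.964 (without 14) in B6 and 0.855 to 0.967 in KI.

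The shared share moved with the overlap asked for, to 14.3% in B6 and 11.3% in KI at 50% of the shorter peak, 6.995% and 5.54% at 50% of both peaks, 33.3% and 27.1% within 500 bp, and 61.2% and 69.3% with broad regions counted. In each of these it stayed above the rest. Outside genes, added after seeing the data, it was 11.9% (rest 9.42%) and 8.02% (rest 6.52%) at 50% of the shorter peak, where the rest fell inside both intervals, and 46.9% and 34.6% with broad regions. Leaving out autosomes gave 18.8% to 19.8% in B6 and 14.9% to 15.6% in KI for all members, and 17.2% to 18.9% and 11.3% to 12.9% outside genes. The share meeting no region of the other strain was 42.9% in B6 and 33.5% in KI with a window of 10 Mb, which turned above the KI rest of 31.8%, and 28.6% in KI with 3 Mb, and without single autosomes 37.2% to 41.9% and 30.2% to 32.1%. The gene share was 79.8% and 73.7% with genes of any type, 79.4% and 74.1% with genes extended by 2 kb and 73.6% in KI with a window of 3 Mb, and without single autosomes 76.2% to 77.9% and 70.0% to 72.04%. The cause of these moves was not tested, apart from the wider or narrower definitions themselves. For the other 25 values the change was smaller than the counting interval, or less than 1.5 times for counts of peaks.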
